A study of Mus musculus with 13 samples.

Results

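The interleukin 6 class of cytokines and the receptor chains that work with gp130 were followed in mouse mammary glands with a conditional knockout of the tyrosine kinase Jak1 and in wildtype controls. The 10 genes were taken by symbol, and all 10 were found among the 23951 genes of each of the 2 deposited tables. They are 5 ligands (Il6, Lif, Osm, Il11 and Clcf1) and 5 receptor chains (Il6st, which encodes gp130, Il6ra, Lifr, Osmr and Il11ra1). On day 2 of involution every Jak1 knockout gland held less Osmr transcript and more Il11ra1 transcript than every control gland, while Il6st, Il6ra and Lifr overlapped between the genotypes. Lif, the most abundant of the ligands at that stage, had the higher mean in knockout glands, but its libraries overlapped. None of these differences passed the threshold after adjustment over all genes.

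Cytokines of the interleukin 6 class signal through receptor complexes that contain gp130. IL-6 and IL-11 first bind a chain of their own, IL-6R or IL-11R, which then recruits gp130, whereas LIF and oncostatin M join gp130 to LIFR or to OSMR. Kinases of the JAK family, JAK1 foremost among them, sit on these chains, phosphorylate them and activate the transcription factor STAT3. In the mammary gland, LIF produced by the epithelium after suckling ends is known as an activator of STAT3 that helps to start the death of milk-producing cells, and oncostatin M is known to act on the same transcription factor there.

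RNA was sequenced from whole glands of female mice in 7 libraries of Jak1 conditional knockouts and 6 of wildtype controls. KO denotes the conditional knockout and Con the wildtype. At day 7 of lactation there were 3 KO libraries (named by mouse as M44174, M42734 and M43767) and 3 Con libraries (M42186, M43768 and M44175). At day 2 of involution there were 4 KO libraries (M43196, M43767, M44176 and M44440) and 3 Con libraries (M44448, M43768 and M43914). Not given in the sources used here were the Jak1 allele, the recombinase and its promoter, strain, age and how involution was started. The libraries of a stage carry separate mouse numbers, while M43767 (KO) and M43768 (Con) appear at both stages, so the titles hold 11 numbers, and whether those females were sampled at both stages is not known. As a multiple of its table's average, estimated depth ran from 0.724 to 1.29 at lactation, and at involution it was lowest in KO M43196 (0.485) and highest in KO M44440. Con M44175 stood apart at lactation with a summed FPKM of 871630, against 312976 to 421592 in the other libraries of that stage, and KO M43196 did so at involution with 1367560, against 590437 to 958496. FPKM are mapped fragments per length and library size.

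Markers of the glandular epithelium were present throughout. The summed level of 10 luminal markers was 669 to 831 FPKM in KO and 775 to 886 FPKM in Con at lactation, and 1670 to 2947 FPKM in KO and 2014 to 2519 FPKM in Con at involution. Jak1 itself stood at 9.51 to 11.2 FPKM in KO and 6.18 to 14.2 FPKM in Con at lactation, and at 17.3 to 26.3 FPKM in KO and 23.97 to 24.6 FPKM in Con at involution. Its log2 differences were -0.00 and -0.12 (limma adjusted p = 0.999 and 0.989). These values are no test of the labels, since whole-gene FPKM of a whole gland can include cells with an intact allele and shortened transcripts. Whether they did so here was not tested.

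The ligands were scarce at lactation. Lif stood at 0.134, 0.0751 and 0.127 FPKM in KO and at 0.227, 0.0328 and 0 FPKM in Con. Il6 was listed at 0 in 2 of 3 KO and 2 of 3 Con libraries, with 0.0828 FPKM in KO M44174 and 0.295 FPKM in Con M44175. The 3 libraries of each genotype overlapped for both genes. Osm, the ligand of OSMR, reached at most 0.0560 FPKM in KO and 0.147 FPKM in Con. Il11, the ligand of IL-11R, reached 0.233 FPKM in KO and 0.158 FPKM in Con. Clcf1, whose product cardiotrophin-like cytokine factor 1 acts on the CNTF receptor, stood at 0.238, 0.466 and 0.262 FPKM in KO and at 0.282, 1.02 and 0.212 FPKM in Con. The 5 ligands and Osmr lay under the filter of 1 FPKM in 3 libraries at this stage and were compared by a two-sided exact permutation test of log2(rescaled FPKM + 1). The differences, KO minus Con, ran from -0.14 (Clcf1) to 0.27 (Osmr), with exact p from 0.3 to 1, where 3 glands against 3 cannot go below 0.1.

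At involution Lif stood at 8.98, 14.9, 3.54 and 18.5 FPKM in KO (M43196, M43767, M44176 and M44440) and at 3.70, 2.89 and 6.97 FPKM in Con (M44448, M43768 and M43914). The 3 highest values were KO glands, and KO M44176 fell among the controls, so the genotypes overlapped. The means were 11.5 ± 6.59 FPKM in KO and 4.52 ± 2.16 FPKM in Con (SD, n = 4 and 3). The fitted log2 difference was 1.07 ± 0.50 (SE, 95% interval -0.07 to 2.21, an unadjusted limma p of 0.0627 and an adjusted p of 0.781). Without 1 library it ran from 0.79 to 1.49.

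The other ligands stayed low at involution. Il6 stood at 0.347, 0.271, 0.423 and 0.224 FPKM in KO and at 0.0719, 0.606 and 0.165 FPKM in Con, so all KO values lay between the lowest and the highest Con value. Osm stood at 0, 0.281, 0.146 and 0.204 FPKM in KO and at 0.261, 0.566 and 0.0857 FPKM in Con. Il11 stood at 0.561, 0.0972, 0.190 and 0.423 FPKM in KO and at 0.542, 0.130 and 0.222 FPKM in Con. For Osm and Il11, too, the genotypes overlapped. The exact permutation p was 0.686 for Il6, 0.457 for Osm and 0.971 for Il11, where 4 glands against 3 cannot go below 0.0571. Clcf1 stood at 1.75, 2.08, 1.22 and 1.05 FPKM in KO and at 2.28, 2.44 and 0.832 FPKM in Con, with a log2 difference of -0.12 ± 0.27 (95% interval -0.74 to 0.49, limma adjusted p = 0.997). Its controls spanned the KO range.

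**Figure D1:**
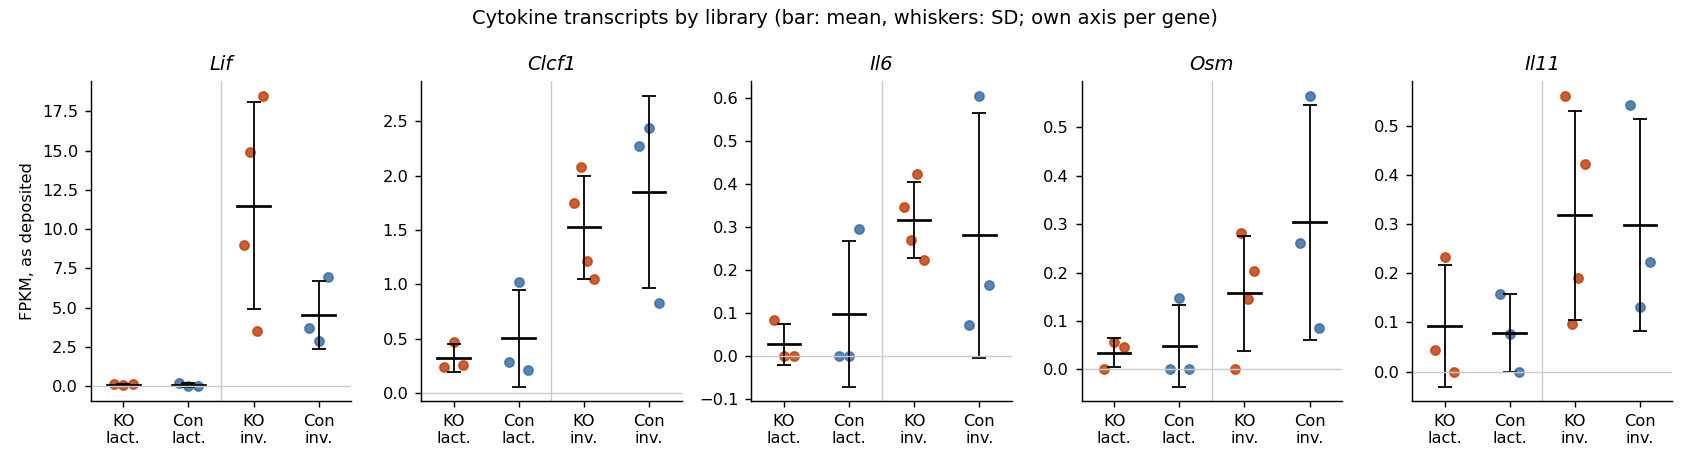
FPKM of the ligands in each library (vertical axes, linear, 1 per gene), with KO left of Con at day 7 of lactation and at day 2 of involution. Points are libraries, the bar is the mean and the whiskers the SD. Lif in involution glands, at 3.54 to 18.5 FPKM in KO and 2.89 to 6.97 FPKM in Con, stood above the other ligands, and no ligand separated the genotypes.

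Promoter sequence of Lif and Il6 is shown because Lif was the ligand with the highest level at involution and Il6 the namesake that stayed under 1 FPKM in all 13 libraries. Both are the 250 bases before the annotated start, 5′ to 3′ on the gene's strand, from RefSeq on GRCm38.p6. The authors' build was mm9, so these coordinates do not apply to the deposited values. Capitals mark matches, on either strand, to letters of known motifs: AP-1 (TGANTCA), C/EBP (TTGCNNAA), NF-kB (GGGNNTTTC) and STAT (TTCNNNGAA), where N is any base. Lif lies at chr11:4257318-4257567 (+) and Il6 at chr5:30012864-30013113 (+).
Lif: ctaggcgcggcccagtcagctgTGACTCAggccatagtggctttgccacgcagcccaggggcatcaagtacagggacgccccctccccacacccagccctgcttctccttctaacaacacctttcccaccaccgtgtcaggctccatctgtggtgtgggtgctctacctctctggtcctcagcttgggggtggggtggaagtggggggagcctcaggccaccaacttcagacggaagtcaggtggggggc
Il6: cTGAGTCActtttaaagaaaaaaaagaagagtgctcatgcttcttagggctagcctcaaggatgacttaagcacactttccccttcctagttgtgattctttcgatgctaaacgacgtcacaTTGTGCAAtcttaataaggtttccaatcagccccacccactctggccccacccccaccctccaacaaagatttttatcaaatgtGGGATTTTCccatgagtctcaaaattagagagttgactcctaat
The Lif window holds 1 AP-1 match, 228 to 222 bases before the start. The Il6 window holds an AP-1 match (249 to 243 bases before the start), a C/EBP match (128 to 121) and an NF-kB match (44 to 36), none of which overlap. Among 32851 promoter windows of this length, 6.75% hold the AP-1 letters, 9.56% the C/EBP letters, 3.72% the NF-kB letters and 7.02% the STAT letters. The STAT letters were not in the window of either gene.

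Of the receptor chains, Osmr differed most between the genotypes. At involution Osmr stood at 13.8, 18.3, 10.02 and 14.3 FPKM in KO (M43196, M43767, M44176 and M44440) and at 26.97, 31.6 and 25.96 FPKM in Con (M44448, M43768 and M43914). All 4 KO glands lay below all 3 Con glands, with a gap between the highest KO and the lowest Con value. The means were 14.1 ± 3.39 FPKM in KO and 28.2 ± 3.02 FPKM in Con (SD, n = 4 and 3). The fitted log2 difference was -0.95 ± 0.21 (SE, 95% interval -1.42 to -0.47), with a limma p of 0.00174, rank 75 among the 12509 genes tested, and an adjusted p of 0.289. It kept its sign when each library was left out in turn (-1.07 to -0.81) and under 8 other settings of the processing (-0.99 to -0.94). The adjusted p over all these alternatives ran from 0.0945, in a joint fit of both stages, to 0.906, so the difference did not pass the threshold of 0.05 under any of them.

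At lactation the order of the genotypes was not the same. Osmr stood at 0.852, 1.15 and 1.41 FPKM in KO (M44174, M42734 and M43767) and at 0.915, 0.892 and 0.590 FPKM in Con (M42186, M43768 and M44175). The 2 highest values were KO glands, and KO M44174 lay among the controls. The means were 1.14 ± 0.278 FPKM in KO and 0.799 ± 0.182 FPKM in Con (SD, n = 3 each), with an exact permutation p of 0.3 for a log2 difference of 0.27. The KO difference at involution minus the KO difference at lactation, tested in 1 fit of the 13 libraries, was -1.22 ± 0.28 for Osmr (95% interval -1.84 to -0.60), with an unadjusted limma p of 0.000993, rank 24 of 12667. Its adjusted p was 0.477. Osmr passed the filter of this fit through its involution libraries, not through those of lactation. That fit takes the libraries that share M43767 or M43768 as independent. With mouse number as a replicate block, an alternative chosen after seeing the data whose within-mouse correlation of 0.697 rests on these 2 pairs, the value was -1.16 ± 0.21 (adjusted p = 0.0665). Because Osmr is low at lactation, the pseudocount of 1 draws its log2 difference there towards 0. With a pseudocount of 0.1 the difference between the stages was -1.51 (limma adjusted p = 0.898), so its size and rank depend on how low values are treated.

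Il11ra1, the chain that binds IL-11, went the other way. At involution it stood at 35.6, 24.2, 28.99 and 35.7 FPKM in KO and at 20.7, 17.7 and 17.9 FPKM in Con. All 4 KO glands lay above all 3 Con glands. The means were 31.1 ± 5.58 FPKM in KO and 18.8 ± 1.68 FPKM in Con (SD, n = 4 and 3), and the log2 difference was 0.71 ± 0.18 (95% interval 0.30 to 1.12), with an unadjusted limma p of 0.00384, rank 114 of 12509, and an adjusted p of 0.417. Without 1 library it ran from 0.64 to 0.82. At lactation Il11ra1 stood at 6.76, 5.21 and 3.81 FPKM in KO and at 3.94, 3.94 and 7.01 FPKM in Con, where the genotypes overlapped (log2 difference 0.14 ± 0.25, 95% interval -0.45 to 0.73, adjusted p = 0.998). The difference between the stages was 0.57 ± 0.30 (95% interval -0.08 to 1.23, adjusted p = 0.999). Il11ra2, a near-identical copy of Il11ra1 in the mouse genome, was listed at 0 in all 13 libraries, so how reads shared by the copies were assigned is uncertain.

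The genotypes overlapped for gp130 and the remaining chains. Il6st, the shared signalling chain, stood at 24.8, 28.4, 29.9 and 20.9 FPKM in KO and at 30.8, 22.6 and 21.3 FPKM in Con at involution, with a log2 difference of 0.09 ± 0.20 (95% interval -0.37 to 0.54). At lactation it stood at 6.66, 7.22 and 9.39 FPKM in KO and at 8.37, 7.37 and 5.13 FPKM in Con (log2 difference 0.20 ± 0.27, 95% interval -0.42 to 0.83). The highest Il6st value at involution was a control and at lactation a knockout, and neither stage set the genotypes apart.

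Lifr, the partner of gp130 for LIF, stood at 8.44, 11.6, 9.67 and 9.85 FPKM in KO and at 11.9, 10.03 and 7.81 FPKM in Con at involution. At lactation it stood at 5.48, 5.47 and 6.52 FPKM in KO and at 5.32, 5.57 and 8.38 FPKM in Con. At both stages the Con libraries spanned the whole KO range. Its log2 difference was 0.03 ± 0.18 at involution (95% interval -0.39 to 0.45) and -0.04 ± 0.21 at lactation (-0.52 to 0.44). Il6ra, the chain that binds IL-6, stood at 14.17, 9.86, 18.4 and 10.9 FPKM in KO and at 16.7, 9.11 and 11.3 FPKM in Con at involution, and at 6.47, 6.96 and 7.07 FPKM in KO and 7.44, 10.4 and 5.59 FPKM in Con at lactation. Its log2 differences were 0.12 ± 0.27 (95% interval -0.49 to 0.74) and -0.08 ± 0.26 (-0.69 to 0.53). For Il6st, Lifr and Il6ra each adjusted p was 0.998, and the sign of each difference turned when 1 library was left out. At involution the intervals of these chains exclude a difference as large as that fitted for Osmr, and smaller ones lie within them.

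**Figure D2:**
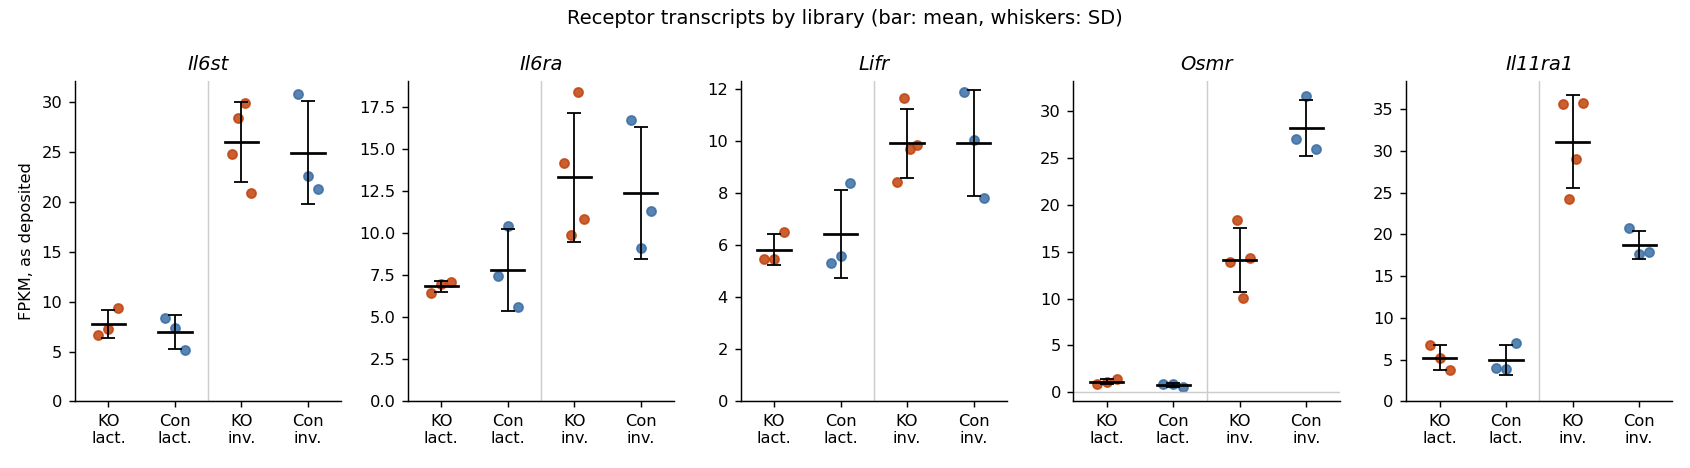
FPKM of the receptor chains in each library (vertical axes, linear from 0, 1 per gene), with KO left of Con at each stage. Points are libraries, the bar is the mean and the whiskers the SD. At involution Osmr stood at 10.02 to 18.3 FPKM in KO below 25.96 to 31.6 FPKM in Con, Il11ra1 at 24.2 to 35.7 FPKM in KO above 17.7 to 20.7 FPKM in Con, and the other chains overlapped.

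The promoter windows of Osmr and Il11ra1 are shown because these were the members whose genotypes stood apart. Osmr lies at chr15:6874314-6874563 (-) and the first of 2 annotated starts of Il11ra1 at chr4:41760193-41760442 (+), both from RefSeq on GRCm38.p6, 5′ to 3′ on the gene's strand.
Osmr: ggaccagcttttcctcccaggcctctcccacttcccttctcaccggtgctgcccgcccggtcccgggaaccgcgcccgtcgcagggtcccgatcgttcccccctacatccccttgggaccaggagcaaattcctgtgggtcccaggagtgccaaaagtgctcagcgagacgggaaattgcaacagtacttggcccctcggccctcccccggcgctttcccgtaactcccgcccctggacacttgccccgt
Il11ra1: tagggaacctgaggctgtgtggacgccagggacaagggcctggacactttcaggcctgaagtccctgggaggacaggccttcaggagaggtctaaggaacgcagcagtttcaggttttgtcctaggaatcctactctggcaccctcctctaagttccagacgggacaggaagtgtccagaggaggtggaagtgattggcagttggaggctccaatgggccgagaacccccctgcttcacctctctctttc
Neither window has capitals, since none of the AP-1, C/EBP, NF-kB and STAT letters were found in it. The Osmr window is rich in G and C (66.0%), the Il11ra1 window less so (57.2%) and the Il6 window least of those shown (42.8%). Of the 8 members with an entry, with 11 windows in all, an AP-1 match was in windows of Il6, Lif and Il11, and no window held the STAT letters. Over all promoter windows 6.75% held the AP-1 letters and 7.02% the STAT letters, so 11 windows may well hold none. Control of these genes by STAT factors was not tested. Osm and Clcf1 had no entry.

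Over the members, counts were as follows. At involution 7 of the 10 members passed the filter, 5 with a positive and 2 with a negative log2 difference, with a median of 0.09 against 0.01 over all genes tested. By limma with Benjamini-Hochberg adjustment 0 of 7 passed the threshold, beside 0.0719% of all genes tested, and 2 of 7 (Osmr and Il11ra1) had an unadjusted p under 0.05, beside 6.84%. Groups did not overlap for 1 member with KO above Con (Il11ra1), beside 2.67% of all genes, and for 1 with KO below Con (Osmr), beside 4.42%. At lactation 4 of 10 passed the filter, 2 with a positive and 2 with a negative difference, and the median was 0.05 against 0.01 over all genes. Of these, 0 passed the threshold (0.0105% of all genes), 0 had an unadjusted p under 0.05 (2.38%), 0 stood apart with KO above Con (2.89%) and 0 with KO below Con (3.17%). For the difference between the stages 0 of 7 passed the threshold (0.0789% of all genes), and 1 of 7, Osmr, had an unadjusted p under 0.05 (3.35%).

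**Figure D3:**
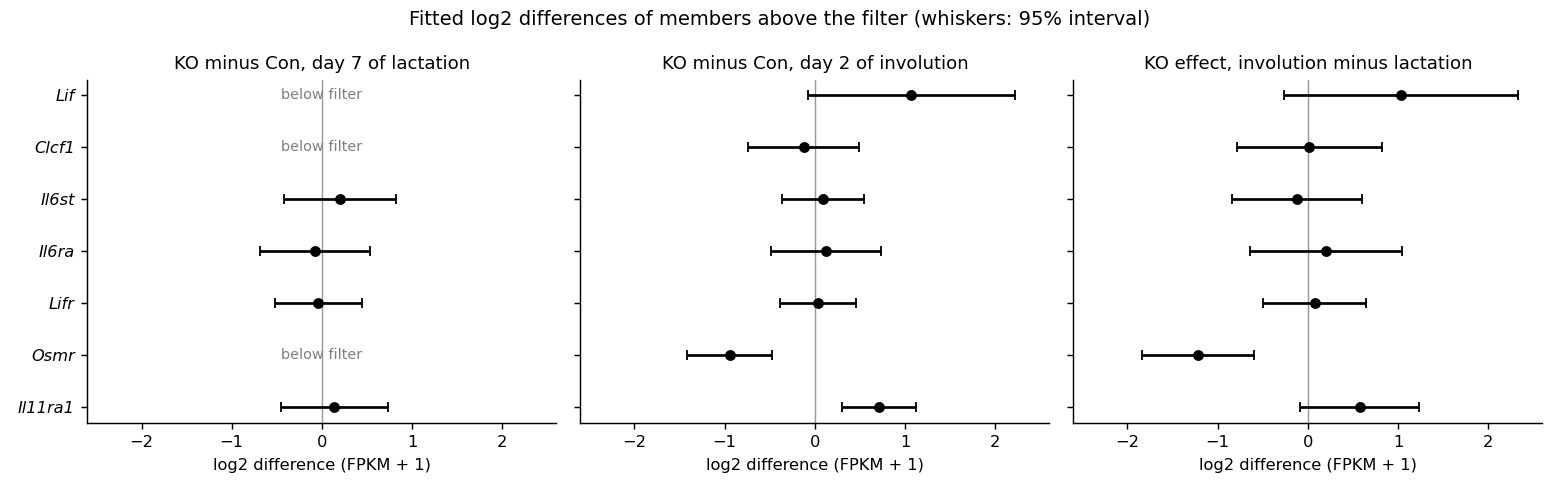
Log2 differences of (rescaled FPKM + 1), KO minus Con, at day 7 of lactation and day 2 of involution, and the involution difference minus the lactation difference (horizontal axes). Points are limma estimates and whiskers 95% intervals, and members below the filter are marked as such. The intervals of Osmr at involution (-1.42 to -0.47), of Il11ra1 at involution (0.30 to 1.12) and of Osmr between stages (-1.84 to -0.60) do not reach 0. The intervals are per gene and not adjusted over all genes. The limma adjusted p of these differences were 0.289, 0.417 and 0.477, above the threshold.

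Since FPKM are relative to length, the chains can also be set against each other within a library, which does not depend on how the tables were scaled. Osmr over Il6st was 0.558, 0.646, 0.335 and 0.687 in KO and 0.875, 1.40 and 1.22 in Con at involution, so Osmr exceeded gp130 in 0 of 4 KO glands and in 2 of 3 Con glands. At lactation the ratio was 0.128, 0.160 and 0.150 in KO and 0.109, 0.121 and 0.115 in Con. The genotypes did not overlap at either stage, KO being below Con at involution and above it at lactation. The gap at lactation was narrow, from 0.121 in Con to 0.128 in KO, and Osmr itself lay under the filter and overlapped there. Among all genes tested, ratios to Il6st stood apart with KO below Con in 2.21% at involution and with KO above Con in 1.78% at lactation. The lactation share covers genes above the filter, and so leaves out Osmr and other low genes.

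As a share of the summed FPKM of the 5 chains, Osmr held 10.3% to 19.8% in KO and 25.2% to 34.7% in Con at involution. At lactation it held 3.25% to 4.99% in KO and 2.21% to 3.52% in Con, the smallest share in each of the 6 libraries. Il11ra1 held 26.2% to 39.0% in KO and 19.3% to 21.3% in Con at involution, against overlapping shares of 13.5% to 25.8% in KO and 13.98% to 26.3% in Con at lactation. The share of Il6st was 22.8% to 30.8% in KO and 24.8% to 28.8% in Con at involution and overlapped between the genotypes. Osmr over Il11ra1 at involution was 0.346 to 0.757 in KO and 1.302 to 1.79 in Con. This ratio had to stand apart, since Osmr was lower and Il11ra1 higher in every KO gland, and it adds no evidence.

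**Figure D4:**
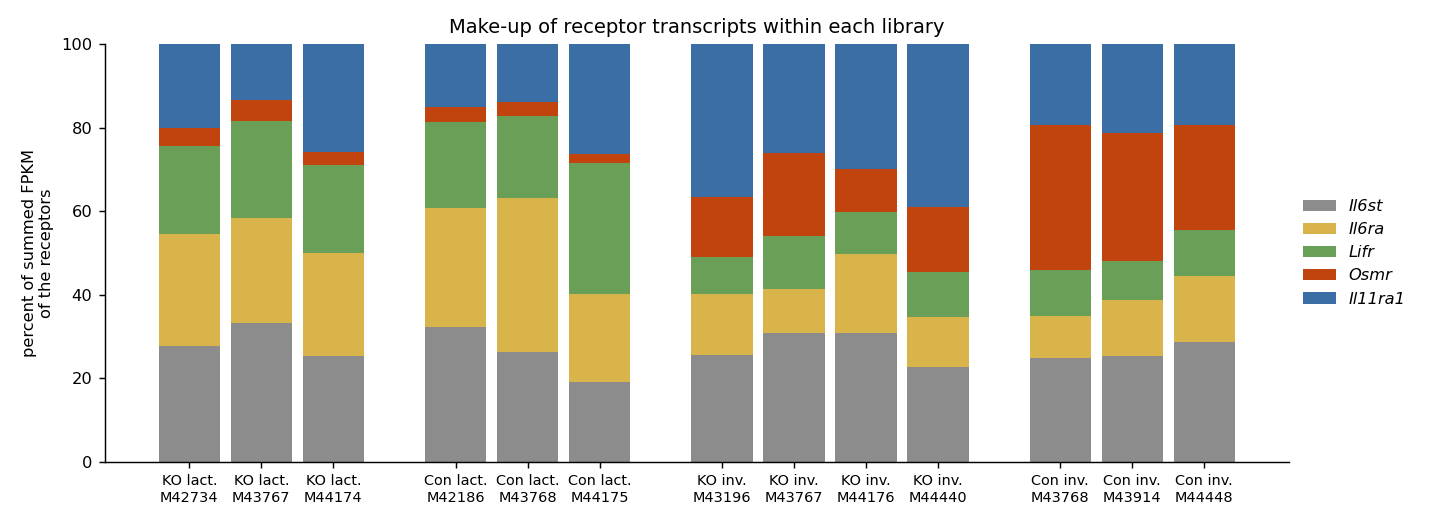
Stacked bars, 1 per library, of the percent of summed receptor FPKM (vertical axis, from 0 to the whole) held by each of the 5 chains, with KO left of Con at each stage. The Osmr segment is 10.3% to 19.8% in KO and 25.2% to 34.7% in Con involution glands, and the Il11ra1 segment 26.2% to 39.0% in KO and 19.3% to 21.3% in Con.

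Ordered by mean FPKM at involution, the members ran Il11ra1, Il6st, Osmr, Il6ra, Lif, Lifr and Clcf1 in KO, and Osmr, Il6st, Il11ra1, Il6ra, Lifr, Lif and Clcf1 in Con, with Il6, Osm and Il11 under 1 FPKM in every library. Neighbours in these orders overlapped in range, except that in KO Il6st stood clear above Osmr and Lifr above Clcf1, and in Con Il6st above Il11ra1, Il11ra1 above Il6ra, Lifr above Lif and Lif above Clcf1. At lactation the order was Il6st, Il6ra, Lifr, Il11ra1 and Osmr in KO, and Il6ra, Il6st, Lifr, Il11ra1 and Osmr in Con, and only Osmr stood clear of its neighbour above in both. The stages came in separate tables, with an upper quartile of 3.06 to 3.21 FPKM at lactation and 8.61 to 9.07 FPKM at involution. Whether the tables were scaled apart is not known, and the source of this gap was not tested. The ratios between the stages that follow are therefore descriptive and carry no test. The mean involution level of Osmr was 12.4 times its lactation level in KO and 35.3 times in Con, and that of Il6st 3.35 times in KO and 3.58 times in Con. The median gene was at 2.92 times in KO and 2.74 times in Con. A ratio as large as that of Osmr was reached by 4.04% of genes in KO and 1.44% in Con. These are genes at 1 FPKM or more in at least 3 of the 13 libraries. Osmr passed that filter through its involution libraries, where it is high, so its place among the ratios is partly set by the filter. No ratio is given for Lif, which was listed at 0 in 1 Con library at lactation.

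In whole tissue, fewer cells of a type and less RNA per cell cannot be told apart, and sums of cell type markers are given for that reason. No marker listed passed the threshold after adjustment at either stage. The summed level of 9 basal markers at involution was 477 to 559 FPKM in KO and 252 to 428 FPKM in Con, without overlap. That of 8 fibroblast markers was 332 to 878 FPKM in KO and 206 to 469 FPKM in Con, with 8 of 8 log2 differences positive. That of 11 adipocyte markers was 4668 to 16752 FPKM in KO and 4284 to 8476 FPKM in Con, with 11 of 11 positive. Of these lists, 0 of 9 basal, 3 of 8 fibroblast and 1 of 11 adipocyte markers had an unadjusted limma p under 0.05, beside 6.84% of all genes. In each list 1 marker had KO wholly above Con, beside 2.67% of all genes. The lowest limma adjusted p was 0.787 for basal, 0.611 for fibroblast and 0.417 for adipocyte markers. None of these markers was listed at 0 throughout a group, and luminal markers, given above, overlapped. Of 12 macrophage markers, 11 were in the tables, summing to 348 to 1050 FPKM in KO and 423 to 552 FPKM in Con. Their log2 differences were positive for 9 and negative for 2. The 7 of 8 neutrophil markers in the tables summed to 35.4 to 405 FPKM in KO and 56.6 to 236 FPKM in Con. Those above the filter had 2 positive and 3 negative differences. The highest fibroblast and macrophage sums at involution were those of KO M43196. Without it, on the log2 scale, Osmr differed by -0.95 (limma adjusted p = 0.616), Il11ra1 by 0.64 (adjusted p = 0.727) and Lif by 1.11 (adjusted p = 0.982). Skin keratinocyte markers summed to 305 FPKM in KO M43767. The other KO libraries held 2.99 to 4.69 FPKM and the Con libraries 1.76 to 3.64 FPKM. Without KO M43767 Osmr differed by -1.07, Il11ra1 by 0.82 and Lif by 0.89. Skeletal muscle markers summed to 4450 FPKM in KO M44176, the KO gland whose Lif fell among the controls. The other KO libraries held 4.31 to 548 FPKM and the Con libraries 55.4 to 1151 FPKM. Without KO M44176 Osmr differed by -0.81, Il11ra1 by 0.74 and Lif by 1.49 (limma adjusted p = 0.437 for Lif). The 8 endothelial markers summed to 166 to 327 FPKM in KO and 190 to 260 FPKM in Con at involution, with overlap. At lactation they summed to 38.3 to 53.1 FPKM in KO and 25.7 to 28.6 FPKM in Con, without overlap. Adipocyte markers there summed to 1496 to 2276 FPKM in KO and 823 to 2779 FPKM in Con (11 of 11 differences positive), and fibroblast markers to 138 to 151 FPKM in KO and 50.9 to 139.6 FPKM in Con (8 of 8 positive), both with overlap. The part of these differences in the values of Osmr, Il11ra1 or Lif was not tested.

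In 5 lists of genes around the pathway, 0 genes passed the threshold at either stage, beside 0.0719% of all genes tested at involution and 0.0105% at lactation. At lactation 0 had an unadjusted limma p under 0.05, beside 2.38%. Among 11 other cytokines and receptors that use gp130, 5 passed the filter at involution, 2 with a positive and 3 with a negative difference (median -0.04). Cntfr, the receptor chain on which CLCF1 acts, stood at 3.89, 8.02, 5.94 and 3.01 FPKM in KO and at 7.11, 10.9 and 48.9 FPKM in Con (log2 difference -1.49 ± 0.59, limma adjusted p = 0.677), where the genotypes overlapped and Con M43914 was far above the rest. Cntf, the ciliary neurotrophic factor gene, differed by -0.20 ± 0.30 (adjusted p = 0.993). Adam10 and Adam17, proteases that shed IL-6R, differed by -0.22 ± 0.18 and 0.05 ± 0.19 (adjusted p = 0.950 and 0.998).

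The list of 17 kinases, STATs and adapters was tested in full at involution, with 4 positive and 13 negative differences, a median of -0.11 and 4 genes with KO wholly below Con, beside 4.42% of all genes. Stat3, the main transcription factor of the pathway, stood at 59.5, 59.9, 62.7 and 69.3 FPKM in KO, all below 112.9, 90.2 and 87.7 FPKM in Con (log2 difference -0.59 ± 0.17, limma adjusted p = 0.480). It was the 1 gene of this list with an unadjusted p under 0.05, beside 6.84% of all genes. Pik3r1, a regulatory subunit of PI3 kinase, differed by -0.47 ± 0.22 (adjusted p = 0.790) and Gab2, an adapter, by -0.25 ± 0.14 (adjusted p = 0.885).

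All 9 inhibitors passed the filter at involution, with 4 positive and 5 negative differences, a median of -0.04, and 2 with an unadjusted p under 0.05, beside 6.84% of all genes. Socs3, the feedback inhibitor that binds gp130, stood at 8.40, 11.3, 8.45 and 9.71 FPKM in KO and at 18.97, 23.4 and 27.99 FPKM in Con (log2 difference -1.19 ± 0.17, limma adjusted p = 0.0898). Ptpn2, a phosphatase that acts on JAK1 and STAT3, stood at 15.1, 12.7, 10.3 and 11.9 FPKM in KO and at 19.4, 25.3 and 35.6 FPKM in Con (-0.99 ± 0.22, adjusted p = 0.296). Socs3 and Ptpn2 were the 2 of the 9 inhibitors with all KO glands below all Con glands, beside 4.42% of all genes. Ptpn1, a related phosphatase, differed by -0.37 ± 0.20 (adjusted p = 0.871).

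The 13 genes listed as STAT3 targets of LIF and oncostatin M had 2 positive and 11 negative differences at involution. The median was -0.65 against 0.01 over all genes, 8 genes had an unadjusted p under 0.05, all with KO lower (6.84% of all genes in either direction), and 7 had KO wholly below Con (4.42% of all genes). Saa3, an acute-phase serum amyloid, stood at 49.3, 28.8, 54.3 and 13.6 FPKM in KO and at 312.7, 525.3 and 496.9 FPKM in Con (log2 difference -3.69 ± 0.46, limma adjusted p = 0.0514). Lrg1, which encodes a secreted leucine-rich glycoprotein, stood at 350.3, 297.7, 332 and 171 FPKM in KO and at 664, 844 and 670.3 FPKM in Con (-1.35 ± 0.29, adjusted p = 0.276). Socs3, given above, is also in this list. At lactation 12 of these genes were tested, 6 with a positive and 6 with a negative difference, and the median was -0.00. The list was drawn up with results of these libraries known, so its count is no independent evidence of a direction.

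**Figure D5:**
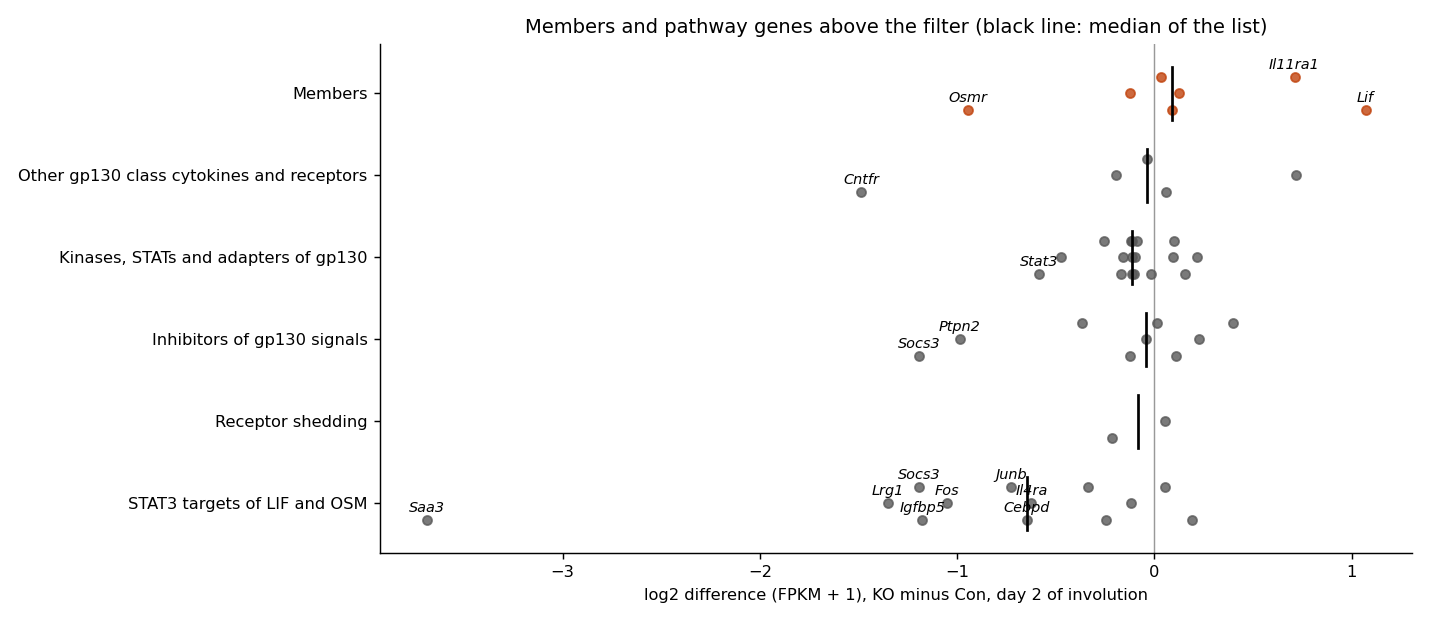
Log2 differences of (rescaled FPKM + 1), KO minus Con, at day 2 of involution (horizontal axis) for members and pathway genes above the filter, 1 row per list. Points are genes, the black line is the median of a list, and most of the genes with the largest differences are named. The median of the STAT3 targets is -0.65, that of the members 0.09 and that of the inhibitors -0.04.

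The genes whose pattern over the 13 libraries was nearest to that of each chain were found by the root mean square distance between values centred within each table and divided by their SD, among genes at 1 FPKM or more in at least 3 libraries of both tables. Nearest to Osmr were Pkd2 (0.381), Hlf (0.396) and Trps1 (0.423), and nearest to Il6st were Usp15 (0.310), Snrk (0.318) and Mtor (0.345). The median gene lay at 1.34 from Osmr and at 1.32 from Il6st. Nearest to Il11ra1 were Acot7 (0.506), Snhg18 (0.513) and Mrpl37 (0.521), to Il6ra Mavs (0.418), Col6a3 (0.476) and Eif4ebp2 (0.525), and to Lifr Fance (0.514), Phyhd1 (0.571) and Zfp667 (0.620). These distances describe the libraries and carry no test.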

How the data were processed

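Whole mammary glands of mice were sequenced in 13 libraries. FPKM were deposited by the authors in 2 tables, 1 per stage, made with CASAVA, cutadapt, TopHat and the mouse build mm9, per the submitters' processing notes. Versions, the quantifier, its gene models and how it scaled each table: not given in the sources used here. Groups and mouse numbers came from the library titles.

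Each table was rescaled on its own with median-of-ratios factors (0.954 to 1.12 at lactation, 0.980 to 1.02 at involution) and taken as log2(value + 1), which understates the change of low genes. A gene entered a fit if 3 or more of its libraries reached 1 FPKM, and the fits used limma 3.58.1 in R 4.3.3 (trended eBayes, two-sided, Benjamini-Hochberg over all genes tested, threshold 0.05). The fits were first tried on simulated log2 changes larger than any fitted for a member. Recovery of differences as small as those of the members was not tested. KO was compared with Con within a stage, and the difference between the stages was tested in 1 fit of the 13 libraries. Members below the filter got an exact permutation test. Tables were joined and promoters searched in Python 3.11.15 with pandas 2.3.3 and numpy 2.4.6. FPKM in the text are as deposited.

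Sequencing depth is not given. Low values were taken to come in steps of 1 fragment, and relative depth was estimated from those steps. Of the pairs of values under 0.3 FPKM, 71.0% of 27125 (lactation) and 69.5% of 33942 (involution) fell within 0.02 (log2) of a ratio of whole numbers no larger than 5. The depths were fitted to these same pairs, and the share expected without such steps was not computed. Counts per gene cannot be had from these estimates, and counting intervals were therefore left out. An exact 0 may be an entry without an estimate, and 4649 genes were listed at 0 in all libraries.

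The members and all lists were chosen with earlier results of these data known. All members are named, as are, of each pathway list, the genes past the threshold or otherwise the 3 with the smallest p at involution, and the 3 genes nearest to each receptor chain, except 1 pathway gene that is not reported here. Markers of skeletal muscle, skin keratinocytes, B lineage cells and T or NK cells were also summed, and the KO and Con ranges of these sums overlapped at both stages. At lactation Con M43768 held 30.7 FPKM of T or NK markers, against 1.06 to 2.72 FPKM in the other libraries. Its B lineage markers summed to 42.1 FPKM, against 2.17 to 9.20 FPKM. Skeletal muscle markers summed to 880 FPKM in KO M44174 and 204 FPKM in Con M43768, against 0.816 to 27.4 FPKM in the others. Without Con M43768 the log2 difference of Il6ra at lactation was 0.14, and without KO M44174 that of Il11ra1 was -0.027. Alternatives were a pseudocount of 0.1, no filter, no rescaling, quantile normalization, leaving out genes listed at 0 in 1 whole group, array weights, robust eBayes, the joint fit and leaving out each library.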

Additional observations from a re-analysis of the deposited data

Results flagged for a closer look

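Osmr over Il6st within a library differed between the genotypes in opposite directions at the 2 stages. The KO mean was 1.27 times the Con mean at lactation (0.146 in KO and 0.115 in Con) and 0.478 times the Con mean at involution (0.557 in KO and 1.16 in Con). At lactation every KO library lay above every Con library, and at involution every KO library lay below every Con library. The gap at lactation was narrow, from 0.121 in Con to 0.128 in KO, and Osmr itself lay under the filter and overlapped there. Leaving out each library in turn, an alternative chosen after the values were seen, gave 1.21 to 1.34 at lactation and 0.426 to 0.542 at involution. The difference of this ratio between the stages was not tested.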

How the results depend on the processing

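No paired analysis was possible within a stage because KO and Con glands of a stage share no mouse number. Between the stages, with mouse number as a replicate block (chosen after seeing the data, 2 numbers shared), 20 genes in place of 10 passed the threshold, 0 of them members, and the members kept their signs, Osmr at -1.16. Under every alternative run, Osmr (-1.07 to -0.81), Il11ra1 (0.64 to 0.82) and Lif (0.79 to 1.49) kept their sign at involution, as did Osmr between the stages (-1.51 to -1.08, adjusted p 0.0665 to 0.9997), and no member passed the threshold in any of them. Osmr at lactation (0.17 to 0.52) and Osm at involution (-0.60 to -0.019) also kept their sign, with the value farthest from 0 at a pseudocount of 0.1. That pseudocount gave 0.37 for Lif and -0.33 for Il6 at lactation and 0.39 for Il6 at involution. The following values changed sign. Lifr was 0.11 at lactation and -0.042 between the stages with array weights, Il6st 0.023 between the stages with array weights, and Clcf1 -0.046 between the stages, Il6 -0.0047 and Il11 -0.016 at involution with quantile normalization. With 1 library left out, log2 differences at lactation ran from -0.31 to 0.14 for Il6ra, -0.13 to 0.089 for Lifr, -0.018 to 0.37 for Il6st, -0.027 to 0.32 for Il11ra1, -0.13 to 0.038 for Il6, -0.018 to 0.13 for Lif, -0.0498 to 0.0497 for Osm, -0.077 to 0.076 for Il11 and -0.28 to 0.095 for Clcf1. At involution they ran from -0.42 to 0.034 for Clcf1, -0.064 to 0.36 for Il6ra, -0.13 to 0.18 for Lifr, -0.025 to 0.26 for Il6st, -0.047 to 0.24 for Il6 and -0.071 to 0.16 for Il11, and between the stages from -0.28 to 0.17 for Clcf1, -0.018 to 0.44 for Il6ra, -0.083 to 0.22 for Lifr and -0.29 to 0.11 for Il6st.

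Counts over all genes moved more. At lactation 1 gene passed the threshold, 2 with a pseudocount of 0.1 or in the joint fit, 0 without genes listed at 0 in 1 whole group, 9 with array weights and 0 to 3 with 1 library left out. At involution 9 passed, 1 without genes listed at 0, 20 with array weights, 14 with robust eBayes, 27 in the joint fit and 2 to 9 with 1 library left out. Between the stages 10 passed, 1 without genes listed at 0, 16 with array weights and 6 to 12 with 1 library left out. Apart from the removal of genes, the cause was not tested. No scaling moved the median of all genes by over 0.1 on the log2 scale. Depth limits Il6, Osm and Il11 most, which lay under 1 FPKM in every library.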
